A study of Mus musculus with 6 samples.

Results

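Among the genes listed as targets of P53 are several that act on the DNA itself. Whether P53 activates each of them in mouse was not tested here. The 5 examined here, *Ddb2*, *Xpc*, *Polk*, *Gadd45a* and *Rrm2b*, were chosen by symbol for their roles in DNA repair and in the supply of nucleotides, by a rule that names the symbols and uses no measured value, although earlier results of these data were known when the rule was made. All 5 were found among the 24421 gene symbols of the count table, and all 5 were among the 15584 genes with enough counts to be tested. RNA was sequenced from heads of E9.0 mouse embryos on a mixed CD1; C57BL/6J background, in 3 WT libraries and 3 mutant libraries. Each library came from a pool of 2 heads of matched somite number and of different litters. The mutants, *Snrpb* ncc+/-, carry 1 *Snrpb* loxP allele and the *Wnt1-Cre2* transgene, so that *Snrpb*, a core protein gene of the spliceosome, becomes heterozygous in neural crest cells, in the tissues they form and in the developing brain, while other cells of the head stay WT. The WT libraries are labelled *Snrpb* +/+, and whether those embryos carried the Cre transgene is not given in the sources used here, so *Snrpb* heterozygosity and the transgene cannot be told apart. The question behind the comparison is which transcripts differ in mutant heads before defects of shape appear.

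P53 is a transcription factor that is stabilised when DNA is damaged or when ribosome production or splicing fails. It drives genes that stop the cell cycle, genes that kill the cell and genes that help to repair DNA. Ddb2 and Xpc recognise bulky lesions and open nucleotide excision repair, Polk copies DNA past lesions that block the replicative polymerases, Gadd45a binds Pcna and stress kinases, and Rrm2b is the subunit of ribonucleotide reductase that provides deoxynucleotides outside S phase. In the head of the embryo, neural crest cells are known for their sensitivity to P53 activation.

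The sequence around the transcription start was at hand from RefSeq (GRCm38.p6) for *Polk*, with 2 start sites, and for *Gadd45a*. These windows, which reach from 250 bases before to 50 bases after the start, were searched for the p53 half-site consensus of 10 bases, which is its own reverse complement, so that both strands were covered. The matches are shown because the members share only their listing as P53 targets, and *Cdkn1a* and *Mdm2* are given beside them as the textbook targets. Capitals mark the match, with 10 bases on either side in lower case.
*Polk*, second start: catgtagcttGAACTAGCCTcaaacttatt
*Gadd45a*: ggttggctgaGGGCTAGCCCcatatctccg
*Cdkn1a*, first match: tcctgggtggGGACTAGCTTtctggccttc
*Cdkn1a*, second match: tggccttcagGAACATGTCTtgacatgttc
*Mdm2*: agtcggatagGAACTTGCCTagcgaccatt
The match of *Polk* lies on chromosome 13 from 96519409 to 96519418, 231 bases before the downstream of its 2 starts, and the window of the other start held none. The match of *Gadd45a* lies on chromosome 6 from 67037438 to 67037447, 40 bases before its start. The matches of *Cdkn1a* on chromosome 17 begin 73 and 51 bases before the upstream of its 2 starts, and the window of its other start held none. That of *Mdm2* on chromosome 10 begins 186 bases before its start. The windows of *Ddb1*, *Cul4a*, *Rad23b*, *Polh*, *Rev1*, *Pcna*, *Gadd45b*, *Gadd45g*, *Rrm1* and *Rrm2*, partners and paralogs of the 5 targets, held no match, and that of *Cetn2* held 1. *Polh* and *Pcna* are themselves listed as P53 targets. The windows of *Trp53* and *Ccng1* held 1 match each. Of all 32851 such windows in the RefSeq table, 8.36% held at least 1 match and 0.359% held 2 or more, so single matches are common and describe the letters only.

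The libraries held 36378803 to 58946111 counted reads in WT and 42398206 to 74909774 in mutants. Markers of the tissues of the head were present, with counts in every library for all 7 neural crest, 7 neural tube and 6 head mesenchyme markers. The summed level of the neural crest markers was 222.5 to 292.0 CPM (counts scaled to library size with edgeR's TMM method) in WT and 265.6 to 285.4 CPM in mutants. Neural tube markers summed to 430.5 to 502.1 CPM in WT and 411.6 to 458.5 CPM in mutants, and head mesenchyme markers to 205.2 to 256.9 CPM and 181.2 to 219.6 CPM. Log2 fold changes of mutant against WT were above 0 for all 7 neural crest markers, 1 of 7 neural tube markers and none of 6 head mesenchyme markers. None of these markers was at an unadjusted *P* under 0.05 (edgeR), against 8.43% of all tested genes. WT replicate 1 stood farthest from the other libraries, with a mean Euclidean distance of 53.05 in log2 CPM against 41.8 to 48.0 for the rest. Cardiac markers summed to 12.4 to 77.9 CPM in WT and 32.4 to 131.4 CPM in mutants, and visceral endoderm markers to 5.04 to 24.8 CPM in WT, highest in WT replicate 1, and 4.92 to 6.18 CPM in mutants. Averaged over 4 genes of the Y chromosome, log2 CPM ran from 3.93 to 4.88 in WT and from 4.78 to 5.82 in mutants, so the pools were not matched for sex. The level of *Snrpb* was 427.4 ± 12.2 CPM in WT against 426.4 ± 12.5 CPM in mutants (SD, *n* = 3 each) and does not separate the libraries by genotype. Cre removes only part of the gene, and the paper reports a shorter transcript after deletion, so counts over the whole gene can include it. By quantitative RT-PCR the paper found *Snrpb* reduced in younger embryos with widespread deletion. In whole heads, a change in the share of a cell type and a change in its RNA per cell cannot be told apart.

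None of the 5 genes passed the threshold of 0.05 between mutant and WT heads once *P*-values were adjusted. That holds with edgeR's quasi-likelihood test, adjusted over the 15584 tested genes, which called 1 gene or 0.00642% of them. It also holds with DESeq2, which called 84 genes or 0.651% of the 12908 to which it gave an adjusted *P*. At an unadjusted *P* under 0.05 (edgeR), 1 of the 5 genes, *Polk*, was higher in mutants, against 4.34% of all tested genes, and none was lower, against 4.09% (8.43% in either direction). In 2 of the 5, *Polk* and *Xpc*, every mutant library lay above every WT library, a pattern found in 8.32% of all tested genes. The reverse pattern, found in 6.92%, occurred in none of the 5, so that groups without overlap made up 2 of the 5 genes against 15.2% of all tested genes. Log2 fold changes of mutant against WT were above 0 in 4 genes and below 0 in 1, with a median of 0.06, where the median of all tested genes was 0.0004.

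**Figure D1:**
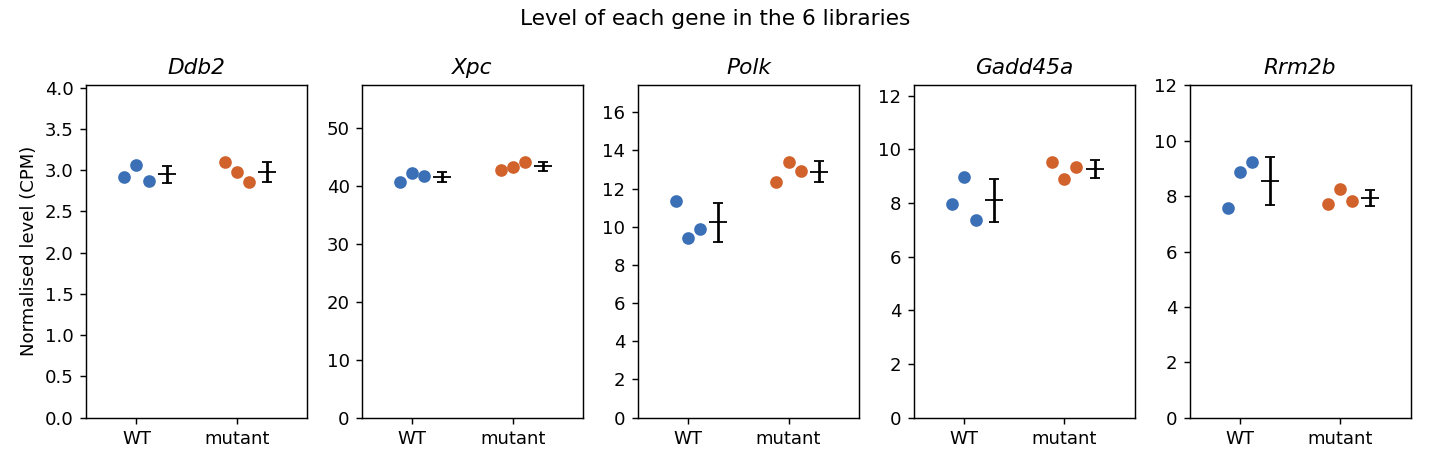
Normalised level in CPM (vertical axis, from 0) of the 5 repair targets in the 3 WT and 3 mutant libraries, 1 point per library, with mean and SD beside the points. *Polk* and *Xpc* have all mutant points above all WT points, while the points of *Ddb2*, *Gadd45a* and *Rrm2b* overlap.

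The genes differ in abundance. Per length of exon, with the union of exons in Gencode M21 and in RPKM (CPM per kilobase of exon), the WT level was 7.55 ± 0.15 for *Xpc*, 4.60 ± 0.46 for *Gadd45a*, 1.84 ± 0.18 for *Polk*, 1.08 ± 0.04 for *Ddb2* and 0.94 ± 0.10 for *Rrm2b* (SD, *n* = 3 each). Over all 6 libraries no neighbours in this order overlapped, but *Ddb2* (1.04 to 1.13 RPKM) and *Rrm2b* (0.83 to 1.01 RPKM) lay close together. The order of these 2 rests on the gene model, since the exons of *Rrm2b* add up to 9134 bases and those of *Ddb2* to 2736. Counts per library ran from 106 to 226 for *Ddb2*, 273 to 677 for *Gadd45a*, 276 to 628 for *Rrm2b*, 365 to 1019 for *Polk* and 1478 to 3285 for *Xpc*.

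The sensors of damage come first. *Ddb2*, on chromosome 2 of mm10 from 91211572 to 91236982, encodes the subunit that finds ultraviolet lesions in chromatin. Its level was 2.91, 3.07 and 2.87 CPM in WT and 3.10, 2.97 and 2.86 CPM in mutants. The groups overlapped, and the log2 fold change was 0.01 (standard error, SE, 0.12, edgeR adjusted *P* = 0.990). The 95% confidence interval of this change ran from −16.5% to 21.6%. The sign of the estimate turned when single libraries were left out, from −0.02 without mutant replicate 1 to 0.04 without WT replicate 2. Of the exonic bases of *Ddb2*, 652 overlap exons of *Acp2*, a lysosomal phosphatase gene on the opposite strand. *Acp2* was 38.8 ± 0.52 CPM in WT against 36.5 ± 0.44 CPM in mutants, and as the sources used here do not say whether counting used strand, reads of the shared bases cannot be assigned to either gene.

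*Ddb1*, the partner that joins Ddb2 to the Cul4 ubiquitin ligases, was the only gene of the 30 in the nucleotide excision repair list at an unadjusted *P* under 0.05 (edgeR). The share over all tested genes was 8.43%. Its level was 1410, 1458 and 1492 CPM in WT and 1350, 1329 and 1324 CPM in mutants, with every mutant library below every WT library. The log2 fold change was −0.12 (SE 0.03, edgeR adjusted *P* = 0.433). Exons of *Ddb1* share 328 bases with *Tkfc* on the opposite strand. *Cul4a*, the scaffold of the ligase, gave a log2 fold change of 0.01 (SE 0.04). A ratio of 2 genes within a library does not depend on how libraries are scaled. Per 100 counts of *Ddb1*, there were 0.206, 0.210 and 0.192 counts of *Ddb2* in WT and 0.230, 0.224 and 0.216 in mutants. The log2 ratio was 0.14 higher in mutants without overlap of the groups, while *Ddb2* itself hardly differed and *Ddb1* was lower (two-sided exact permutation test, *P* = 0.1, the smallest that 3 libraries against 3 allow, and 0.167 adjusted over 5 ratios).

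*Xpc*, on chromosome 6 from 91489305 to 91515888, encodes the protein that detects distorted DNA throughout the genome and recruits the repair factors. Its level was 40.6, 42.2 and 41.7 CPM in WT and 42.7, 43.2 and 44.2 CPM in mutants. All mutant libraries lay above all WT libraries, but by a narrow margin. The log2 fold change was 0.06 (SE 0.05, edgeR adjusted *P* = 0.735), with a 95% confidence interval of −2.73% to 12.2%. *Xpc* had the most counts of the 5 genes and the narrowest interval. The proteins that bind and stabilise Xpc gave log2 fold changes of −0.04 for *Rad23b* (SE 0.04) and 0.02 for *Cetn2* (SE 0.05). Per 100 counts of *Rad23b*, there were 8.47, 8.30 and 8.42 counts of *Xpc* in WT and 8.77, 8.93 and 9.34 in mutants, again without overlap (log2 difference 0.10, exact permutation test, two-sided, *P* = 0.1, adjusted *P* = 0.167).

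*Polk* gave the largest difference of the 5 genes. It lies on chromosome 13 from 96480690 to 96542579 and encodes DNA polymerase kappa, which inserts bases opposite bulky adducts and helps to fill gaps in excision repair. The level was 11.4, 9.43 and 9.87 CPM in WT and 12.3, 13.4 and 12.9 CPM in mutants. The groups did not overlap, and WT replicate 1 lay closest to the mutants. The means were 10.2 ± 1.02 CPM in WT against 12.9 ± 0.53 CPM in mutants (SD, *n* = 3 each). The log2 fold change was 0.34 (SE 0.09, unadjusted *P* = 0.00459, adjusted *P* = 0.424, edgeR), or 26.4%, with a 95% confidence interval of 9.74% to 45.6%. By unadjusted *P*, *Polk* ranked 166 among the 15584 tested genes. With DESeq2 the adjusted *P* was 0.146. When single libraries were left out, the log2 fold change stayed between 0.28, without WT replicate 2, and 0.42, without WT replicate 1. Adding Y-linked expression to the model gave 0.32 (SE 0.14, unadjusted *P* = 0.0528, adjusted *P* = 0.999, edgeR).

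Among the other genes of translesion synthesis, *Rev1*, the deoxycytidyl transferase that serves as a landing platform for Polk and its relatives, was the only one of 16 at an unadjusted *P* under 0.05 (edgeR), against 8.43% of all tested genes. Its level was 43.2, 43.0 and 37.2 CPM in WT and 46.4, 48.8 and 48.6 CPM in mutants, with a log2 fold change of 0.22 (SE 0.06, edgeR adjusted *P* = 0.433). The groups did not overlap. *Rev1* shares 1643 exonic bases with *Eif5b* and *Gm37062*, and the part of those reads in its level was not tested. *Polh*, which encodes polymerase eta, the polymerase for ultraviolet dimers and itself a P53 target, was 28.2 ± 1.39 CPM in WT against 26.9 ± 1.43 CPM in mutants (log2 fold change −0.07, SE 0.06). *Pcna*, the sliding clamp on which these polymerases are exchanged, gave a log2 fold change of 0.01 (SE 0.04). Per 100 counts of *Polh* there were 41.7, 31.7 and 35.8 counts of *Polk* in WT and 48.6, 47.4 and 47.6 in mutants. This ratio was nearly constant in mutants and did not overlap with WT (log2 difference 0.40, exact permutation test, two-sided, *P* = 0.1, adjusted *P* = 0.167).

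*Gadd45a*, on chromosome 6 from 67035096 to 67037457, encodes a small protein that is induced by stress and activates the kinase Map3k4. The level was 7.97, 8.97 and 7.38 CPM in WT and 9.54, 8.91 and 9.34 CPM in mutants. Here 1 mutant library, replicate 2, fell just below the highest WT library, replicate 2, and the groups overlapped by that pair. The log2 fold change was 0.19 (SE 0.10, edgeR adjusted *P* = 0.645), with a 95% confidence interval of −2.30% to 32.7%. Without WT replicate 2 it was 0.27, and without WT replicate 3 it was 0.12. Adding Y-linked expression to the model gave 0.11. Exons of *Gadd45a* share 337 bases with *E230016M11Rik* on the opposite strand, a transcript at 0.62 ± 0.16 CPM in WT against 0.68 ± 0.12 CPM in mutants.

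Its paralogs act in the same kinase pathway. *Gadd45b* was 1.88 ± 0.33 CPM in WT against 2.16 ± 0.23 CPM in mutants (log2 fold change 0.20, SE 0.17). *Gadd45g* was 6.66 ± 1.11 CPM in WT against 6.42 ± 0.54 CPM in mutants (log2 fold change −0.04, SE 0.14). Per 100 counts of *Gadd45g*, there were 101.4, 158.7 and 114.2 counts of *Gadd45a* in WT and 164.5, 131.5 and 139.6 in mutants, with overlap (exact permutation test, two-sided, *P* = 0.3, adjusted *P* = 0.375). *Gadd45a* also answers to the integrated stress response, a translation-coupled pathway led by Atf4. Of 12 tested genes of that response, 1 was at an unadjusted *P* under 0.05 (edgeR), against 8.43% of all tested genes. It was *Sesn2*, which is a P53 target as well. The median log2 fold change of the 12 was −0.01. *Atf4* gave a log2 fold change of 0.03 (SE 0.04) and *Ddit3* of 0.05 (SE 0.13).

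*Rrm2b*, on chromosome 15 from 37923952 to 37961318, was the only one of the 5 genes with a lower mean in mutants. The level was 7.58, 8.86 and 9.24 CPM in WT and 7.72, 8.26 and 7.84 CPM in mutants. All mutant libraries lay within the range of the WT libraries. The log2 fold change was −0.11 (SE 0.10, edgeR adjusted *P* = 0.802), with a 95% confidence interval of −20.7% to 8.50%. WT replicate 1 was the lowest library, and the log2 fold change came to −0.19 when it was left out. Of the windows of 100 bases in *Rrm2b* transcripts, 5.58% also occurred in transcripts of other genes, and *Rrm2* was not among them. Exons of *Rrm2b* share 734 bases with other annotated genes, among them the antisense transcript *Gm49085*.

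Ribonucleotide reductase is built from the large subunit Rrm1 with either Rrm2, the S phase subunit, or Rrm2b. *Rrm1* was 369.2, 355.5 and 366.7 CPM in WT and 311.3, 324.6 and 350.1 CPM in mutants. Every mutant library was below every WT library, with a log2 fold change of −0.15 (SE 0.05, edgeR adjusted *P* = 0.454). *Rrm2* was 470.3 ± 29.6 CPM in WT against 445.3 ± 5.56 CPM in mutants (log2 fold change −0.08, SE 0.05). Per 100 counts of *Rrm2* there were 1.52, 1.87 and 2.11 counts of *Rrm2b* in WT and 1.75, 1.86 and 1.74 in mutants. The ratio did not differ beyond the spread between WT libraries (log2 difference −0.03, exact permutation test, two-sided, *P* = 0.9). Of the 17 genes of deoxynucleotide supply, *Rrm1* and *Tk1*, the thymidine kinase of S phase, were lower at an unadjusted *P* under 0.05 (edgeR), and none was higher. Over all tested genes the shares were 4.09% lower and 4.34% higher. *Tk1* was 69.3 ± 3.72 CPM in WT against 59.8 ± 2.06 CPM in mutants (log2 fold change −0.21, SE 0.05, edgeR adjusted *P* = 0.420).

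**Figure D2:**
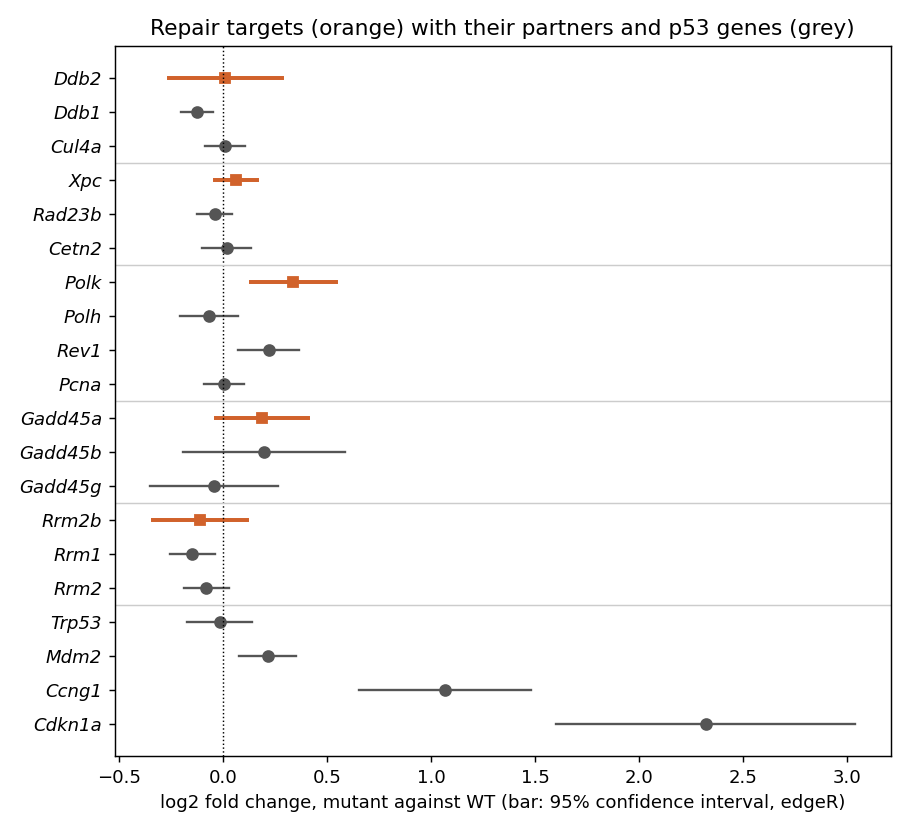
Log2 fold change of mutant against WT (horizontal axis, edgeR) with its 95% confidence interval for the 5 repair targets (orange squares), their partners and paralogs, and 4 genes of the P53 pathway (grey circles). The interval of *Polk* ends at 0.54, below the intervals of *Ccng1* and *Cdkn1a*, which begin at 0.65 and 1.60.

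The lists of repair genes around the 5 targets were centred near no difference. Of 30 genes of nucleotide excision repair, 14 had log2 fold changes above 0 and 16 below, with a median of −0.003 and a range of −0.12 to 0.07. Of 16 genes of translesion synthesis, 5 were above 0 and 11 below, with a median of −0.04. Of the 17 genes of deoxynucleotide supply, 9 were above 0 and 8 below, with a median of 0.01. No gene of these lists was past an adjusted *P* of 0.05 with edgeR or with DESeq2. In the Gadd45 list of 4 genes none was at an unadjusted *P* under 0.05.

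Some other P53 targets, *Cdkn1a* and *Ccng1* among them, gave larger log2 fold changes than any of the 5 repair targets in the same libraries, but others, such as *Mdm2* and *Bax*, lay below *Polk*. Of 33 listed, 32 were tested, and 26 had log2 fold changes above 0. Their median was 0.21, above the median of 0.06 of the 5 repair targets and below the 0.34 of *Polk* alone. The list includes targets that the study singled out from these same libraries, so its direction is not independent evidence. With edgeR none of them was past an adjusted *P* of 0.05, while before adjustment 14 were higher and 1 was lower at *P* under 0.05 (edgeR). Of all tested genes, 4.34% were higher and 4.09% lower at that level, and DESeq2 called 0.651% of its genes in either direction. With DESeq2, 10 rose and none fell, *Cdkn1a*, *Ccng1*, *Phlda3*, *Eda2r*, *Trp53inp1*, *Bax*, *Pmaip1*, *Sesn2*, *Gtse1* and *Ak1*, with log2 fold changes from 0.22 for *Bax* to 2.30 for *Cdkn1a*. *Cdkn1a*, the inhibitor of cyclin-dependent kinases, was 1.47 ± 0.64 CPM in WT against 7.16 ± 1.58 CPM in mutants. *Mdm2*, the ubiquitin ligase that removes P53, was 53.6, 61.5 and 55.6 CPM in WT and 63.4, 68.4 and 66.7 CPM in mutants (log2 fold change 0.22, SE 0.06, edgeR adjusted *P* = 0.433). *Trp53* itself gave a log2 fold change of −0.02 (SE 0.07). Listed targets that act in repair, *Ercc5*, *Fancc*, *Pcna* and *Polh*, lay lower in this range, with log2 fold changes of 0.07, 0.05, 0.01 and −0.07 in that order.

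**Figure D3:**
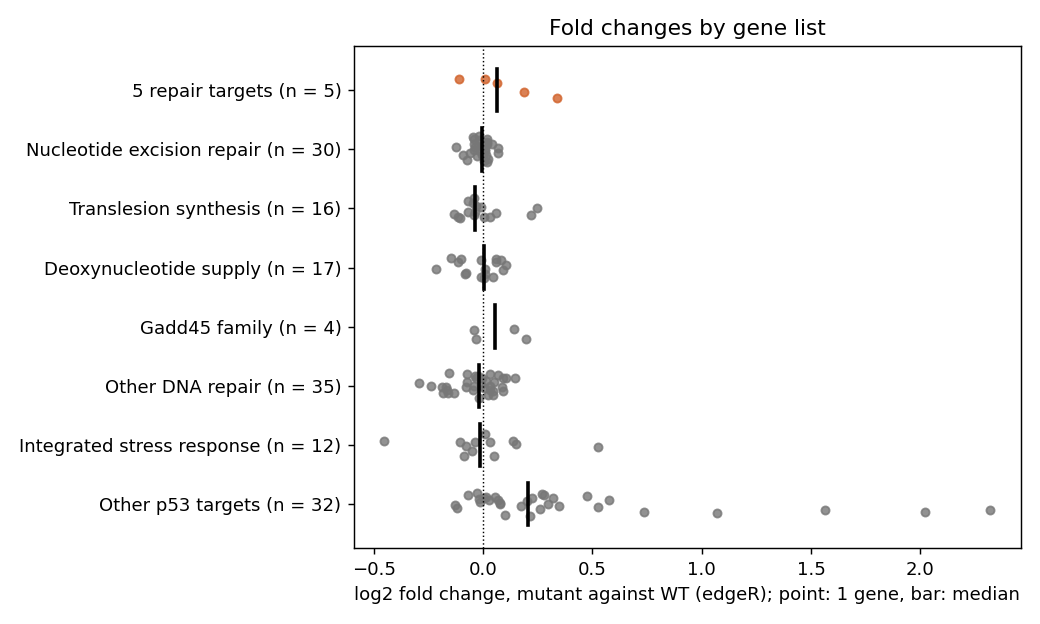
Log2 fold change of mutant against WT (horizontal axis, edgeR) for each tested gene of the lists, 1 point per gene, with the median of the list as a black bar. The 5 repair targets span −0.11 to 0.34, and the other P53 targets reach 2.32.

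To set the repair targets beside a target of the cell cycle arm, their counts were set against those of *Ccng1*, cyclin G1, a comparison chosen after the values of *Ccng1* were seen. *Ccng1* was 57.4, 43.9 and 43.0 CPM in WT and 81.5, 107.5 and 112.8 CPM in mutants. Per 100 counts of *Ccng1* there were 19.8, 21.5 and 22.9 counts of *Polk* in WT and 15.1, 12.5 and 11.4 in mutants. For each of the 5 genes the ratio was lower in every mutant library than in every WT library. The log2 difference of the ratios was −0.73 for *Polk*, −0.87 for *Gadd45a*, −1.05 for *Ddb2* and −1.17 for *Rrm2b*, and that of *Xpc* lay between *Gadd45a* and *Ddb2*. All 5 ratios share the counts of *Ccng1*, and any gene that differs little between the groups gives a lower ratio, so these values restate the difference in *Ccng1* and no test is drawn from them.

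**Figure D4:**
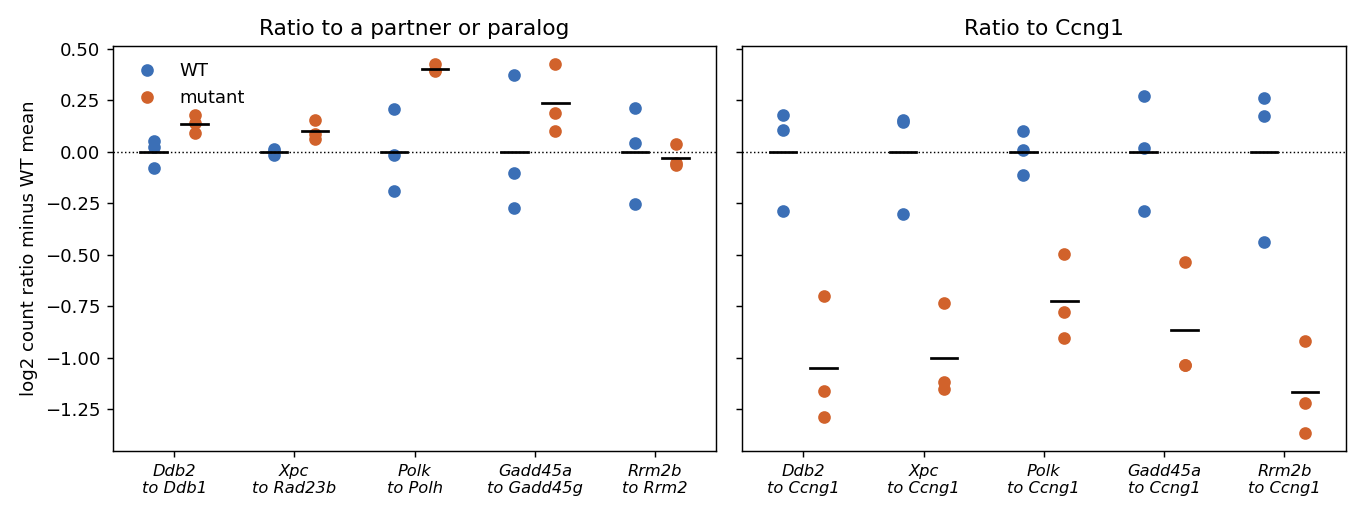
Log2 ratio of counts within each library, less the WT mean of that ratio (vertical axis), for the 5 repair targets against a partner or paralog (left) and against *Ccng1* (right). Each point is 1 library and black bars are means. On the left the groups are apart for *Ddb2*, *Xpc* and *Polk*, with a log2 difference of 0.40 for *Polk*, and on the right all mutant points lie below all WT points. *Xpc* and *Polk* were also apart in CPM, and for *Ddb2* the partner *Ddb1* was lower in mutants. How often ratios of other gene pairs are apart was not counted, so nothing is drawn from the number of such ratios.

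As the measure of likeness, log2 CPM centred on the mean of the 6 libraries was compared with that of 13138 other genes at a mean of at least 1 CPM, and the root mean square difference was taken. The nearest genes were *Gnb1* and *Fh1* for *Ddb2* (0.007 and 0.008), *Nr2c2* for *Xpc* (0.010), *Gm16907* and *2310015A10Rik* for *Polk* (0.028 and 0.050), *Zbtb8b* and *Zfp276* for *Gadd45a* (0.009 and 0.025) and *Rasef* and *Gatad1* for *Rrm2b* (0.020 and 0.024). None of these genes was in the lists of P53 targets or repair genes. Those lists hold only a small part of the 13138 genes, so nothing is drawn from this. Between pairs of the 5 genes the difference ran from 0.058 for *Ddb2* with *Xpc* to 0.274 for *Polk* with *Rrm2b*.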

How the data were processed

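RNA of pooled E9.0 mouse heads was profiled in 3 WT and 3 mutant libraries, grouped by their titles. Per the paper's methods, the authors made stranded libraries from RNA depleted of ribosomal RNA, trimmed and mapped the reads to mm10 (STAR, with the Gencode M2 annotation) and counted them per gene with HTSeq, whereas the submitters' processing notes name featureCounts. The strand setting is not given in the sources used here. The deposited values are raw counts per gene symbol, without normalization.

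Counts were tested here with edgeR 4.0.16 in R 4.3.3, after filterByExpr and TMM scaling, with robust quasi-likelihood dispersions and genotype as the only term. *P*-values were adjusted over the 15584 tested genes with the Benjamini-Hochberg method, with 0.05 as threshold. Standard errors and 95% confidence intervals come from that fit. DESeq2 (version 1.42.0), the authors' tool, was an alternative, and the scripts were tested on simulated data. Ratios were tested by exact permutation. Coordinates and exon lengths come from Gencode M21, also on mm10. Log2 CPM used a prior count of 2.

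The 5 genes and all gene lists were chosen with earlier results of these data known. Named were the 5 genes, their partners and paralogs, *Trp53*, *Mdm2*, *Cdkn1a*, *Ccng1* and *Snrpb*, list genes past the threshold with either tool, and the 2 genes most alike in pattern to each target. Other list genes (*Tk1*, *Ercc5*, *Fancc*, *Atf4*, *Ddit3* among them) and the genes that overlap a target were named after their values were seen. Some genes that the rule or the lists would name are not reported here. The alternatives were DESeq2, other size factors, other filters, a block for the replicate number, Y-linked level as a covariate and each library left out in turn. *P*-values measure the spread between pools of 2 heads.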

Additional observations from a re-analysis of the deposited data

How the results depend on the processing

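None of the 5 genes passed an adjusted *P* of 0.05 under the 7 alternatives run on them or in the 6 fits without 1 library, and *Xpc*, *Polk*, *Gadd45a* and *Rrm2b* kept the sign of their log2 fold change in all of them. *Ddb2*, near 0, turned to −0.053 with Y-linked level as a covariate, and ran from −0.018 (without mutant replicate 1) to 0.043 (without WT replicate 2) with single libraries left out. The number of genes called was 84 with DESeq2, 11 without a filter on low counts, 0 with Y-linked level as a covariate and 0 to 6 with single libraries left out (6 without WT replicate 1, 5 without mutant replicate 1 and 0 without any other). Of the other P53 targets, DESeq2 called 10, the fit without a filter 1, and the fits without single libraries 0 to 3 (3 without mutant replicate 1, 2 without WT replicate 1). Of the integrated stress response genes, DESeq2 called 1. The difference in the *Rrm2b* to *Rrm2* ratio ran from −0.15 (without WT replicate 1) to 0.079 (without WT replicate 3). The cause of these shifts was not tested. Same-numbered WT and mutant libraries had correlations of their deviations of 0.17, 0.03 and 0.36, against −0.25 to 0.09 for libraries of different numbers. These numbers come from the sample titles, and the column headers of the count table number the mutant libraries differently. The main fit did not take the numbers as pairs, and whether they are pairs was not tested. With the replicate number as a block *Polk* had a log2 fold change of 0.34 (adjusted *P* = 0.421, edgeR) and 1 gene was called in all. At 106 to 226 counts per library, *Ddb2* had the widest confidence interval of the 5 genes.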

Other observations

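Of 35 further DNA repair genes outside the 5 targets, in recombination, end joining, mismatch and base excision repair and checkpoint signalling, none was past an adjusted *P* of 0.05 with edgeR or DESeq2. At an unadjusted *P* under 0.05 (edgeR), 5 were lower in mutants, *Brca1*, *Fancd2*, *Fanci*, *Atm* and *Atr*, and 1 was higher, *Chek2*, against 4.09% and 4.34% of all tested genes. *Fancd2*, which marks crosslinked DNA in the Fanconi pathway, was 66.2 ± 2.56 CPM in WT against 58.1 ± 1.48 CPM in mutants (SD over 3 libraries each), log2 fold change −0.19 (SE 0.05, edgeR adjusted *P* = 0.424). Its partner *Fanci* was 57.3 ± 2.97 CPM in WT against 51.3 ± 1.90 CPM in mutants (log2 fold change −0.16, SE 0.05, edgeR adjusted *P* = 0.469). The median over the 35 genes was −0.02, with 15 above 0 and 20 below. These genes were named after their values were seen.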
